A study of Homo sapiens with 24 samples.

Results

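The genes described here are 44 that act in DNA replication and at the G1/S transition, the step at which a cell commits to copying its genome. They were chosen by gene symbol, and every probe annotated to a member was taken: 68 of the 47323 probes on the array. A detection filter kept 64 of these probes for 43 genes, out of 13283 genes tested. The remaining member, CCNE2, had 1 probe, which was detected on 0 of 24 arrays and was not tested.

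The study used HEK293, an established human embryonic kidney cell line, grown in phenol-free DMEM with serum in all groups. MOTS-c, a short peptide encoded within the mitochondrial gene for the small ribosomal RNA, was added at 10 µM, and control cells received water. The 4 groups were cells given MOTS-c for 72 h, control cells at 72 h, cells given MOTS-c for 4 h and control cells at 4 h, with 6 Illumina bead arrays each. The labels do not state whether the 6 samples of a group were grown apart, and the p-values therefore reflect sample-to-sample spread alone, part or all of which may be technical.

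DNA replication begins at origins, where the origin recognition complex, CDC6 and CDT1 load the MCM2-7 helicase, and where geminin blocks CDT1 once loading has ended. CDC45 and the GINS proteins then turn the loaded helicase into an active one, polymerase alpha and primase lay down primers, and polymerases delta and epsilon extend them with the help of the sliding clamp PCNA. Many of these genes are known targets of E2F transcription factors, which cyclin E and its kinase help to release from the retinoblastoma protein as cells pass from G1 into S phase.

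Promoter sequences are shown first for the members whose levels differed between MOTS-c and control cells at 72 h and whose promoter window held an E2F-type motif. RefSeq promoter windows of 300 bases, 250 before and 50 after the gene start, were matched by symbol for 37 of the 44 members. The motif was searched as TTTCCCGC, TTTCGCGC, TTTGCCGC or TTTGGCGC on both strands, and a gene with any of these 4 words counted once. CCAAT was searched on both strands too, independently, so that the motifs may share bases. The E2F-type motif was found for 19 of the 37 members with a window (51.4%). It was found for 3.99% of all 27305 genes with a window and 6.48% of the 10615 tested genes with a window. CCAAT was found for 22 of the 37 members (59.5%), against 43.5% of the tested genes with a window. Among members with a window, 4 of 7 that were higher with MOTS-c at 72 h held the E2F-type motif (GMNN, ORC3, PCNA and POLA1), and 1 of 7 that were lower did (LIG1). A match describes the letters in the window and is not a binding site. The 250 bases before the start are printed 5′ to 3′ on the gene's strand from RefSeq on GRCh38.p14, with the E2F-type motif in capitals.
PCNA: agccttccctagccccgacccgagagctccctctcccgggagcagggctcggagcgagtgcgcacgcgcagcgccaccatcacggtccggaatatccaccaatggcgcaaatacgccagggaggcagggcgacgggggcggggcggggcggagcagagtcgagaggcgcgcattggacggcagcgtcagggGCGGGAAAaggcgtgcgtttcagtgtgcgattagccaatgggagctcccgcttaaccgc
POLA1: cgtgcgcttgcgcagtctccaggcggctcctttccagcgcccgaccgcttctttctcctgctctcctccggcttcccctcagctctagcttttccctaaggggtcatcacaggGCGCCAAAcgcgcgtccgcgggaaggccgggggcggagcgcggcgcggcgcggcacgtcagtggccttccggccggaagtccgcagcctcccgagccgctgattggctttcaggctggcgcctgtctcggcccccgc
ORC3: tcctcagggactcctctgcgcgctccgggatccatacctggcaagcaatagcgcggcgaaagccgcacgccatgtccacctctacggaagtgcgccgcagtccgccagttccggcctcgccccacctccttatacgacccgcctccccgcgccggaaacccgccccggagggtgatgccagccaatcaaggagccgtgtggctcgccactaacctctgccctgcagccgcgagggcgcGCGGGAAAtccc
GMNN: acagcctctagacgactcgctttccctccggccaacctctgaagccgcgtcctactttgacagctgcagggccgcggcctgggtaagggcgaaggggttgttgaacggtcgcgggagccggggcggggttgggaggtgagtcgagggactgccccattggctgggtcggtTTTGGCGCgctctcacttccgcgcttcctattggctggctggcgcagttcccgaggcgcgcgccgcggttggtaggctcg
LIG1: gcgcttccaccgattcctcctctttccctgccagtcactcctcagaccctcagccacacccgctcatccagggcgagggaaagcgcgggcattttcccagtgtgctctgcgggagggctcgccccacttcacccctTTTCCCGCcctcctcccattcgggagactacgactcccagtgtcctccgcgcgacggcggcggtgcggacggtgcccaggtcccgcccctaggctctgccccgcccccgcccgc
These windows lie at chr20:5126623-5126872 (minus strand) for PCNA, chrX:24693668-24693917 (plus strand) for POLA1, chr6:87589885-87590134 (plus strand) for ORC3, chr6:24775163-24775412 (plus strand) for GMNN and chr19:48170345-48170594 (minus strand) for LIG1. The motif began 59 bases before the start of PCNA, 137 before POLA1 and 12 before ORC3, in each case as the reverse complement, and on the gene's own strand 114 bases before LIG1 and 80 before a GMNN start. RefSeq gives 2 windows for GMNN, and the one shown belongs to the downstream start, inside the annotated gene, since the other held no match. A gene with several windows was counted as holding a motif if any of them did. Windows were not matched for MCM4, MCM5, CCNE2, GINS4, POLD3, RPA2 and RPA3.

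Levels are log2 bead intensities after background correction and quantile normalization, and a difference of 1 on this scale is a doubling. Mean array intensity ran from 403.7 to 582.2 in MOTS-c cells at 72 h, from 399.2 to 596.9 in control cells at 72 h, from 434.0 to 629.5 in MOTS-c cells at 4 h and from 488.7 to 576.3 in control cells at 4 h. All 10 HEK293 marker genes examined were detected, and of the marker genes of other cell types on the array, CD3E, CDH5, PECAM1, KRT5, KRT14, AFP and APOA1 were detected on no array. Detected on at least 6 arrays were 2 of 4 leukocyte, 1 of 5 endothelial, 3 of 5 fibroblast, 2 of 4 keratinocyte and carcinoma and 2 of 5 hepatocyte markers. At 72 h the summed intensity of the leukocyte markers ran from 1945 to 3197 in MOTS-c cells, against 1258 to 2572 in control cells, and that of the keratinocyte and carcinoma markers from 8590 to 11888, against 6949 to 11790. The other 3 lists summed to at most 939 on each of these arrays, and the part of these markers in the results was not tested. Mean levels of the 43 measured members spanned 5.88 (GINS1) to 13.94 (ORC6), and these probe levels are not compared between genes. GINS1 was detected on 5 of 6 MOTS-c arrays and 4 of 6 control arrays at 4 h. Intensities come from whole cultures, so fewer cells in a phase of the cell cycle and less RNA per cell cannot be told apart.

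After 72 h with MOTS-c, members of the replication machinery differed from control in both directions, and within the same complexes. ORC3, ORC4, GMNN, POLA1, PCNA, RFC1, RFC4 and RPA3 were higher, and ORC1, ORC5, PRIM1, POLD2, RFC5, RPA2, FEN1 and LIG1 were lower, by limma with Benjamini-Hochberg adjustment over 13283 genes at an adjusted p under 0.05. These 16 of 43 members (37.2%) compare with 45.1% of all genes tested, and 22.1% of all genes were higher and 22.9% lower. The median log2 fold change was 0.01 over the 43 members and 0.01 over all genes. The calls depend on how arrays were scaled: with median scaling in place of quantile normalization, 7 members were higher and 0 lower. Among members that passed with either scaling, only RFC5 changed sign. Over all 13283 genes, median scaling gave 2952 higher and 1737 lower. The plot of effects at 72 h by role shows the 8 members on each side of 0.

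**Figure D1:**
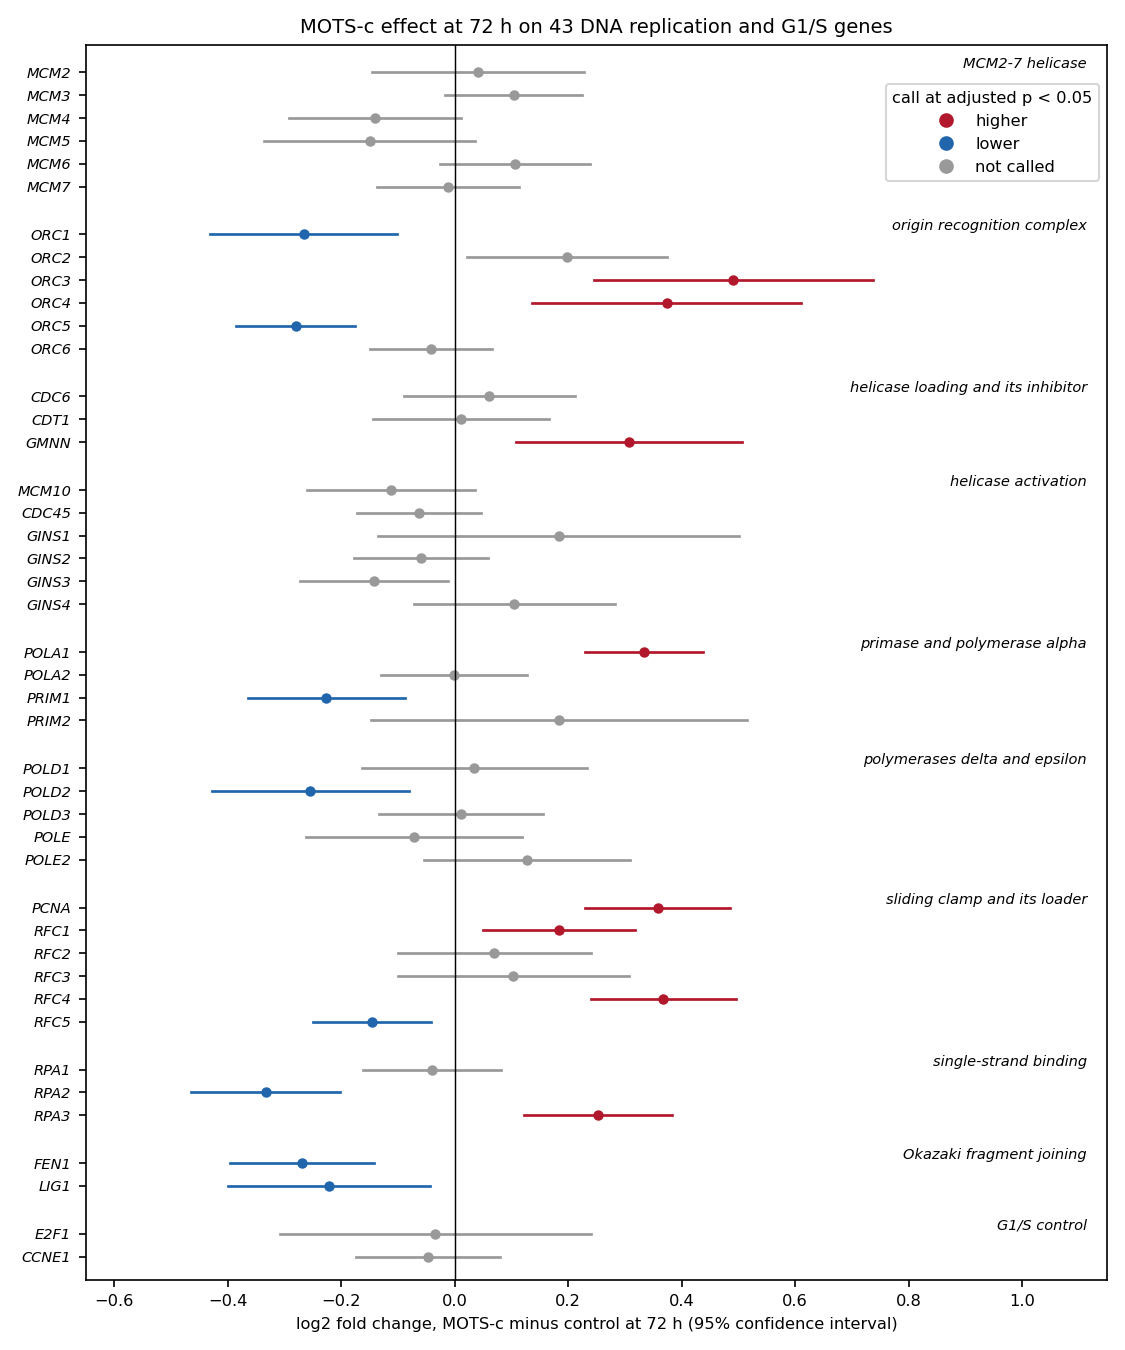
Log2 fold change of each of the 43 measured members at 72 h, MOTS-c minus control (x axis), with points for the limma estimate and bars for its 95% confidence interval, grouped by role (y axis). Red points are the 8 members called higher, blue points the 8 called lower and grey points those not called; POLA1, RFC4 and PCNA lie right of 0, and ORC5 and RPA2 lie left of 0, on the side where 0 members passed with median scaling.

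The origin recognition complex, which marks origins for helicase loading, had 2 subunits higher and 2 lower among 6, and with median scaling 1 higher (ORC3) and 0 lower. ORC3 had lowest, median and highest levels of 9.84, 9.94 and 10.12 on MOTS-c arrays at 72 h, against 9.11, 9.45 and 9.83 on control arrays. Every MOTS-c array was above every control array, and the log2 fold change of 0.49 (SE 0.12, adjusted p = 0.00145) was the highest among the members. ORC4 measured 6.56, 6.92 and 7.09 with MOTS-c, against 6.13, 6.54 and 6.90 in control cells. These groups overlapped, with a difference of 0.37 (SE 0.12, adjusted p = 0.00962). ORC5 measured 9.96, 10.02 and 10.07 with MOTS-c, against 10.24, 10.30 and 10.36 in control cells. The ORC5 groups did not overlap, and the level fell by 0.28 (SE 0.051, adjusted p = 6.46e-05). ORC1, the largest subunit and an ATPase, measured 7.43, 7.61 and 7.89 with MOTS-c, against 7.75, 7.87 and 8.0 in control cells. The ranges overlapped, and ORC1 fell by 0.27 (SE 0.08, adjusted p = 0.00812). ORC2 differed by 0.20 (adjusted p = 0.0625) and ORC6 by -0.04 (adjusted p = 0.549), and neither passed the test.

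Of the 3 genes that control helicase loading, GMNN, which encodes the CDT1 inhibitor geminin, was higher at 72 h. GMNN measured 11.36, 11.53 and 11.86 on MOTS-c arrays, against 10.99, 11.30 and 11.39 on control arrays. The ranges overlapped slightly, and the difference was 0.31 (SE 0.097, adjusted p = 0.011). CDC6, the ATPase that works with the origin recognition complex, measured 6.16, 6.42 and 6.53 with MOTS-c, against 6.23, 6.33 and 6.45 in control cells. CDT1, the loading factor itself, measured 11.24, 11.37 and 11.45 with MOTS-c, against 11.05, 11.38 and 11.58 in control cells. Neither passed the test: the CDC6 difference was 0.06 (adjusted p = 0.525), and the 95% interval of the CDT1 difference of 0.01 ran from -0.14 to 0.17.

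None of the 6 subunits of the MCM2-7 helicase, which unwinds DNA at the fork, passed the test at 72 h. Their differences ran from -0.15 (MCM5) to 0.11 (MCM6), with a median of 0.01. Among the 6 genes for helicase activation, none passed either, and the differences ran from -0.14 (GINS3, adjusted p = 0.0712) to 0.18 (GINS1, adjusted p = 0.357). MCM10, CDC45, GINS2 and GINS4 lay between these values. A second MCM3 probe differed by 0.22 when each probe was tested on its own (adjusted p = 0.0133), and with median scaling the MCM3 difference of 0.21 passed the test (adjusted p = 0.0356).

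In the primase and polymerase alpha complex, which starts each new strand, the catalytic subunits of the polymerase and of the primase moved in opposite directions, although the primase gene did not pass with median scaling. POLA1 measured 10.18, 10.30 and 10.37 on MOTS-c arrays at 72 h, against 9.86, 9.98 and 10.02 on control arrays. The groups did not overlap, and the difference of 0.33 (SE 0.051, adjusted p = 5.98e-06) had the smallest adjusted p of the 43 members. PRIM1, the catalytic primase subunit, measured 10.65, 10.80 and 10.93 with MOTS-c, against 10.94, 11.02 and 11.10 in control cells. Again the groups did not overlap, and PRIM1 fell by 0.23 (SE 0.067, adjusted p = 0.00732). POLA2 (0.00) and PRIM2 (0.18, adjusted p = 0.377), their partner subunits, did not pass. For the polymerases that extend the strands, POLD2, an accessory subunit of polymerase delta, measured 10.56, 10.68 and 10.96 with MOTS-c, against 10.79, 11 and 11.20 in control cells. The POLD2 ranges overlapped and it fell by 0.25 (SE 0.085, adjusted p = 0.0158); without control replicate 3 at 72 h the adjusted p was 0.0503. The other 4 genes, POLD1, POLD3, POLE and POLE2, did not pass.

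PCNA, the clamp that holds polymerases on DNA, and 2 subunits of the loader that places it were higher, while another loader subunit, RFC5, was lower with quantile normalization and at 0.00 with median scaling. PCNA measured 12.98, 13.04 and 13.08 on MOTS-c arrays at 72 h, against 12.61, 12.68 and 12.73 on control arrays. The groups were fully apart, with a difference of 0.36 (SE 0.062, adjusted p = 3.57e-05), or 1.28-fold. RFC4 measured 11.10, 11.20 and 11.30 with MOTS-c, against 10.68, 10.80 and 11.02 in control cells. RFC4 was also fully apart, with a difference of 0.37 (SE 0.062, adjusted p = 2.52e-05), and its second probe gave 0.37 as well. RFC1, the large subunit, measured 9.56, 9.70 and 9.88 with MOTS-c, against 9.41, 9.45 and 9.77 in control cells. The RFC1 ranges overlapped, and the difference of 0.18 (SE 0.065, adjusted p = 0.0229) lost its call without control replicate 3, 4 or 6 or MOTS-c replicate 6 at 72 h, with adjusted p between 0.0535 and 0.0735. RFC5 measured 11.33, 11.42 and 11.49 with MOTS-c, against 11.47, 11.57 and 11.63 in control cells. The RFC5 ranges overlapped slightly, and it fell by 0.15 (SE 0.051, adjusted p = 0.0203), with an adjusted p of 0.0533 without MOTS-c replicate 5 at 72 h. RFC2 and RFC3 did not pass by the probes used. In the limma fit of each probe, the other RFC3 probes differed by 0.35 (adjusted p = 0.000421) and 0.04 (adjusted p = 0.616). The second RFC1 probe differed by 0.07 (adjusted p = 0.548) in that fit.

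Replication protein A, which coats single-stranded DNA, had its middle and small subunits on opposite sides, the middle one not passing with median scaling. RPA2 measured 11.90, 12.00 and 12.09 on MOTS-c arrays at 72 h, against 12.13, 12.35 and 12.49 on control arrays. The groups did not overlap, and RPA2 fell by 0.33 (SE 0.064, adjusted p = 0.000127). RPA3 measured 12.03, 12.12 and 12.20 with MOTS-c, against 11.74, 11.88 and 11.98 in control cells. Here every MOTS-c array was above every control array, by 0.25 on average (SE 0.064, adjusted p = 0.002). RPA1, the large subunit, differed by -0.04 and did not pass.

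Both genes that process and seal Okazaki fragments, the short pieces of the lagging strand, were lower at 72 h with quantile normalization, and neither passed with median scaling. FEN1, the flap endonuclease, measured 11.71, 11.85 and 11.90 on MOTS-c arrays, against 11.95, 12.07 and 12.28 on control arrays. The groups did not overlap, FEN1 fell by 0.27 (SE 0.062, adjusted p = 0.000797), and its second probe fell by 0.33. LIG1, the ligase, measured 9.10, 9.33 and 9.51 with MOTS-c, against 9.43, 9.48 and 9.73 in control cells. The LIG1 ranges overlapped, and the level fell by 0.22 (SE 0.087, adjusted p = 0.0392). That call was lost without control replicate 2 or 4, or without MOTS-c replicate 3, 4 or 6, at 72 h, with adjusted p between 0.0632 and 0.108.

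The regulators of the transition itself did not pass the test at 72 h. E2F1, a transcription factor that activates S-phase genes, measured 7.01, 7.23 and 8.0 on MOTS-c arrays, against 6.98, 7.34 and 7.81 on control arrays. MOTS-c replicate 1 stood at 8.0, the next highest array of its group being at 7.28. The E2F1 difference was -0.03 (95% interval -0.31 to 0.24, adjusted p = 0.854), and -0.17 (adjusted p = 0.225) without that array. CCNE1, which encodes cyclin E1, measured 9.75, 9.84 and 10.03 with MOTS-c, against 9.81, 9.91 and 9.96 in control cells. The CCNE1 ranges overlapped almost entirely, with a difference of -0.05.

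**Figure D2:**
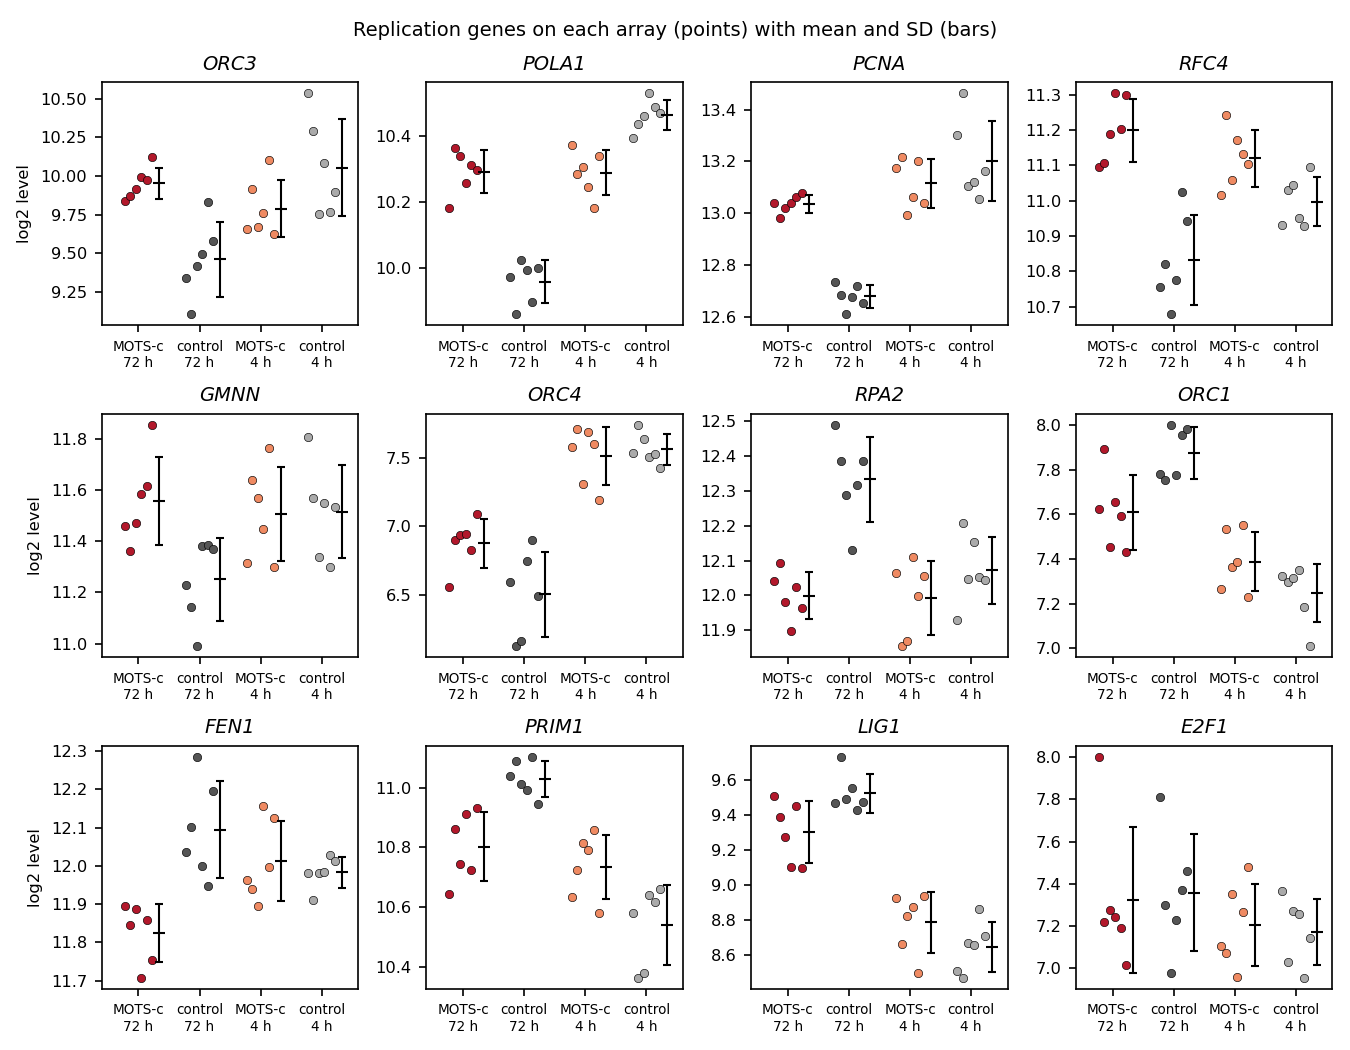
Log2 level on each array (y axis) of 11 members called at 72 h and of E2F1, with 1 point per array and the group mean with its SD as bars, in the order MOTS-c 72 h, control 72 h, MOTS-c 4 h and control 4 h (x axis, 6 arrays per group). PCNA lies between 12.98 and 13.08 in MOTS-c cells at 72 h, above the 12.61 to 12.73 of control cells at 72 h, and close to the 12.99 to 13.22 of MOTS-c cells at 4 h.

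Counting arrays rather than testing them, 9 of the 43 members had fully separate groups at 72 h, against 22.4% of all genes tested. These were ORC3, POLA1, PCNA, RFC4 and RPA3, with MOTS-c higher, and ORC5, PRIM1, RPA2 and FEN1, with MOTS-c lower.

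How the arrays were scaled moved the effects at 72 h by a similar amount for most members. Median scaling raised the log2 fold change of 41 of 43 members, by a median of 0.14, and raised the median of all genes to 0.08, against 0.01 with quantile normalization. The median over members was 0.11 with median scaling. GMNN, ORC3, PCNA, POLA1, RFC4 and RPA3 stayed higher under median scaling, PCNA by 0.52 (adjusted p = 0.000225) and POLA1 by 0.49 (adjusted p = 0.000227). ORC4 (adjusted p = 0.0546) and RFC1 (adjusted p = 0.0503) fell short and MCM3 was added. All 8 lower members lost their call, with values from -0.18 (RPA2, adjusted p = 0.114) to 0.00 (RFC5, adjusted p = 0.983), where RFC5 also changed sign. The median standard error of members was 0.10 with median scaling and 0.07 with quantile normalization. In the plot of both scalings, 41 of 43 points lie above the line of equality.

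**Figure D3:**
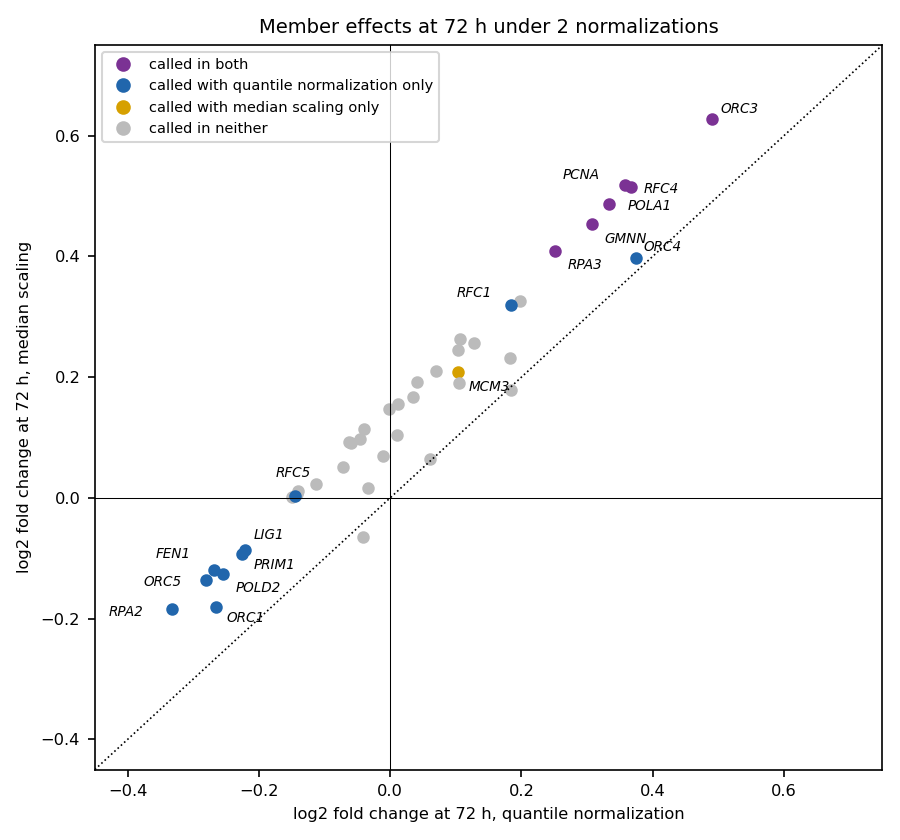
Log2 fold change of members at 72 h, MOTS-c minus control, with quantile normalization (x axis) and with median scaling (y axis), 1 point per gene and a dotted line of equality. The 6 genes called in both are in purple at the upper right, PCNA among them, and the 8 lower genes, called with quantile normalization only, sit nearer 0 on the y axis.

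At 4 h no member passed the test. The call rate over all genes was 0.00753%, 1 of 13283 genes, by limma. At an unadjusted p under 0.05 there were 3 of 43 members, against 11.8% of all genes. POLA1 differed by -0.17 (SE 0.051, adjusted p = 0.228) and was the only member with separate groups, against 0.542% of all genes; it measured 10.18, 10.30 and 10.37 with MOTS-c, against 10.40, 10.47 and 10.53 in control cells. PRIM1 differed by 0.19 (adjusted p = 0.271) and ORC3 by -0.27 (adjusted p = 0.381). PCNA measured 12.99, 13.12 and 13.22 with MOTS-c, against 13.05, 13.14 and 13.46 in control cells, and E2F1 measured 6.96, 7.19 and 7.48 with MOTS-c, against 6.96, 7.20 and 7.37 in control cells. Both overlapped throughout.

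The difference between the MOTS-c effects at 72 h and at 4 h was tested as an interaction. It passed for 13 of 43 members (30.2%), against 34% of all genes, with 6 positive and 7 negative. With median scaling it passed for 6 members as positive and 0 as negative, against 1874 and 1144 of all genes. Of the 6 positive members 4 were shared between the scalings, since ORC4 and RFC1 no longer passed and MCM3 and MCM6 did. POLA1 (0.51, SE 0.072, adjusted p = 5.34e-06), ORC3 (0.76, SE 0.17, adjusted p = 0.00104) and PCNA (0.44, SE 0.088, adjusted p = 0.000312) were the positive values that held under every alternative fitted. In the limma fit of each probe, the other PCNA probes gave 0.22 (adjusted p = 0.207) and 0.10 (adjusted p = 0.513), and neither passed. The other POLA1 probe passed in that fit (0.48, adjusted p = 0.0173). PRIM1 (-0.42, adjusted p = 0.00117), ORC1 (-0.41, adjusted p = 0.00649) and POLD2 (-0.41, adjusted p = 0.00994) were the largest negative values, and none of these 3 passed under median scaling. GMNN did not pass (0.32, adjusted p = 0.0746), nor did RPA3 (0.19, adjusted p = 0.105), so a change in their MOTS-c effect with time was not shown. For ORC4 (0.42, adjusted p = 0.047) the call was lost in 16 of 24 fits that left out 1 array.

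Between 72 h and 4 h, MOTS-c cells had 7 members higher and 9 lower, 16 of 43. This compares with 38.1% of all genes (19.9% higher and 18.2% lower). With median scaling 6 members were higher and 4 lower, against 2451 and 1091 of all genes. Fully separate groups were found for 8 of 43 members, against 18.8% of all genes. ORC4 (-0.64, adjusted p = 9.56e-05), CDC6 (-0.41, adjusted p = 6.94e-05), POLA2 (-0.40, adjusted p = 1.29e-05), MCM6 (-0.36) and MCM5 (-0.35, adjusted p = 0.00336) were the lowest, and LIG1 (0.52, adjusted p = 3.67e-05), GINS1 (0.46, adjusted p = 0.0213), POLD1 (0.43), POLD3 (0.38) and RFC3 (0.29) the highest. GINS1 and FEN1 each lost the call when 1 MOTS-c array at 4 h was left out, replicate 3 (adjusted p = 0.0643) for GINS1 and replicate 4 (adjusted p = 0.0501) for FEN1. CCNE1 fell by 0.17 (adjusted p = 0.0314), a call lost in 6 of 24 fits that left out 1 array. The same was so for RFC3 in 2 fits, RFC5 in 4 and ORC1 in 5.

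The levels behind these changes separated the times to different degrees in MOTS-c cells. CDC6 measured 6.16, 6.42 and 6.53 at 72 h, against 6.66, 6.83 and 6.89 at 4 h. POLA2 measured 9.98, 10.05 and 10.11 at 72 h, against 10.28, 10.47 and 10.54 at 4 h. Both were fully apart and lower at the later time, and so was MCM6, with 12.09, 12.22 and 12.31 at 72 h, against 12.34, 12.58 and 12.74 at 4 h. MCM6 no longer passed with median scaling (-0.24, adjusted p = 0.0934). In the other direction, POLD3 measured 7.97, 8.05 and 8.21 at 72 h, against 7.51, 7.69 and 7.85 at 4 h. POLD1, the catalytic subunit of polymerase delta, measured 9.09, 9.41 and 9.58 at 72 h, against 8.82, 8.88 and 9.19 at 4 h. POLD3 was fully apart and POLD1 was not. LIG1 measured 9.10, 9.33 and 9.51 at 72 h, against 8.50, 8.85 and 8.94 at 4 h, again with no overlap. CCNE1 measured 9.75, 9.84 and 10.03 at 72 h, against 9.92, 10.03 and 10.15 at 4 h, with overlap. GMNN measured 11.36, 11.53 and 11.86 at 72 h, against 11.30, 11.51 and 11.77 at 4 h, and CDT1 measured 11.24, 11.37 and 11.45 at 72 h, against 11.15, 11.33 and 11.43 at 4 h. Neither GMNN (0.05) nor CDT1 (0.05) passed.

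Control cells changed with time in most members, as in most genes. At 72 h against 4 h, 14 members were higher and 15 lower, 29 of 43 in all. This compares with 62.6% of all genes (31.9% higher and 30.7% lower). With median scaling 9 members were higher and 16 lower, against 3263 and 3830 of all genes. The largest member changes were in ORC4, which fell by 1.06 (SE 0.12, adjusted p = 1.13e-08), a 2.08-fold difference, and LIG1, which rose by 0.88 (SE 0.087, adjusted p = 1.87e-09), or 1.84-fold. ORC4 measured 6.13, 6.54 and 6.90 at 72 h, against 7.42, 7.53 and 7.74 at 4 h. LIG1 measured 9.43, 9.48 and 9.73 at 72 h, against 8.47, 8.66 and 8.87 at 4 h. Neither overlapped, as was so for 13 of the 43 members, against 35.6% of all genes. Among the other lower genes were ORC3 (-0.59), MCM6 (-0.58), PCNA (-0.52) and POLA1 (-0.51), and among the other higher ones were ORC1 (0.63), POLD2 (0.52), PRIM1 (0.49) and POLD1 (0.43). MCM6 measured 12.02, 12.06 and 12.23 at 72 h, against 12.61, 12.66 and 12.85 at 4 h, and PCNA measured 12.61, 12.68 and 12.73 at 72 h, against 13.05, 13.14 and 13.46 at 4 h. Both were fully apart, but PCNA did not pass with the mean of its probes (-0.13, adjusted p = 0.0552). GMNN fell by 0.27 (adjusted p = 0.0192), a call lost in 2 of 24 fits that left out 1 array, and CDC6 fell by 0.37 (adjusted p = 9.11e-05). The calls of CDC45, RFC4, RPA3, GINS3, RFC3 and PRIM2 were also lost in 1, 3, 3, 4, 5 and 6 of these fits, in that order.

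MOTS-c cells and control cells share no arrays in these time comparisons. Of the 7 members higher at 72 h in MOTS-c cells and the 14 higher in control cells, 6 were common (85.7% of the MOTS-c list and 42.9% of the control list): LIG1, ORC1, POLD1, POLD3, RFC3 and RFC5. Over all genes tested, 73.3% of the MOTS-c list and 45.7% of the control list were common. With median scaling LIG1, POLD1 and POLD3 stayed among the common members. Of the 9 lower in MOTS-c cells and the 15 lower in control cells, 6 were common (66.7% of the MOTS-c list and 40% of the control list): CDC45, CDC6, GINS2, MCM6, ORC4 and POLA2. Over all genes tested the shares were 67.2% of the MOTS-c list and 39.9% of the control list, and with median scaling CDC6, ORC4 and POLA2 stayed common. The comparison of MOTS-c with control at 72 h does share arrays with each time comparison, so their values are set side by side without a measure of likeness. POLA1 had 0.00 with time in MOTS-c cells, -0.51 with time in control cells and 0.33 for MOTS-c minus control at 72 h. PCNA had -0.08, -0.52 and 0.36 in the same order, ORC3 had 0.16, -0.59 and 0.49, and RPA2 had 0.01, 0.26 and -0.33. For PCNA the other probes gave 0.00 and 0.13 with time in control cells. Other members had other patterns: FEN1 had -0.19, 0.11 and -0.27 in the same order. In the limma fit of each probe, the second FEN1 probe had -0.23, 0.22 (adjusted p = 0.0237) and -0.33. With the mean of its probes, FEN1 passed as higher with time in control cells. ORC4 had -0.64, -1.06 and 0.37, and LIG1 had 0.52, 0.88 and -0.22. The plot of the time comparisons shows each gene with both values.

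**Figure D4:**
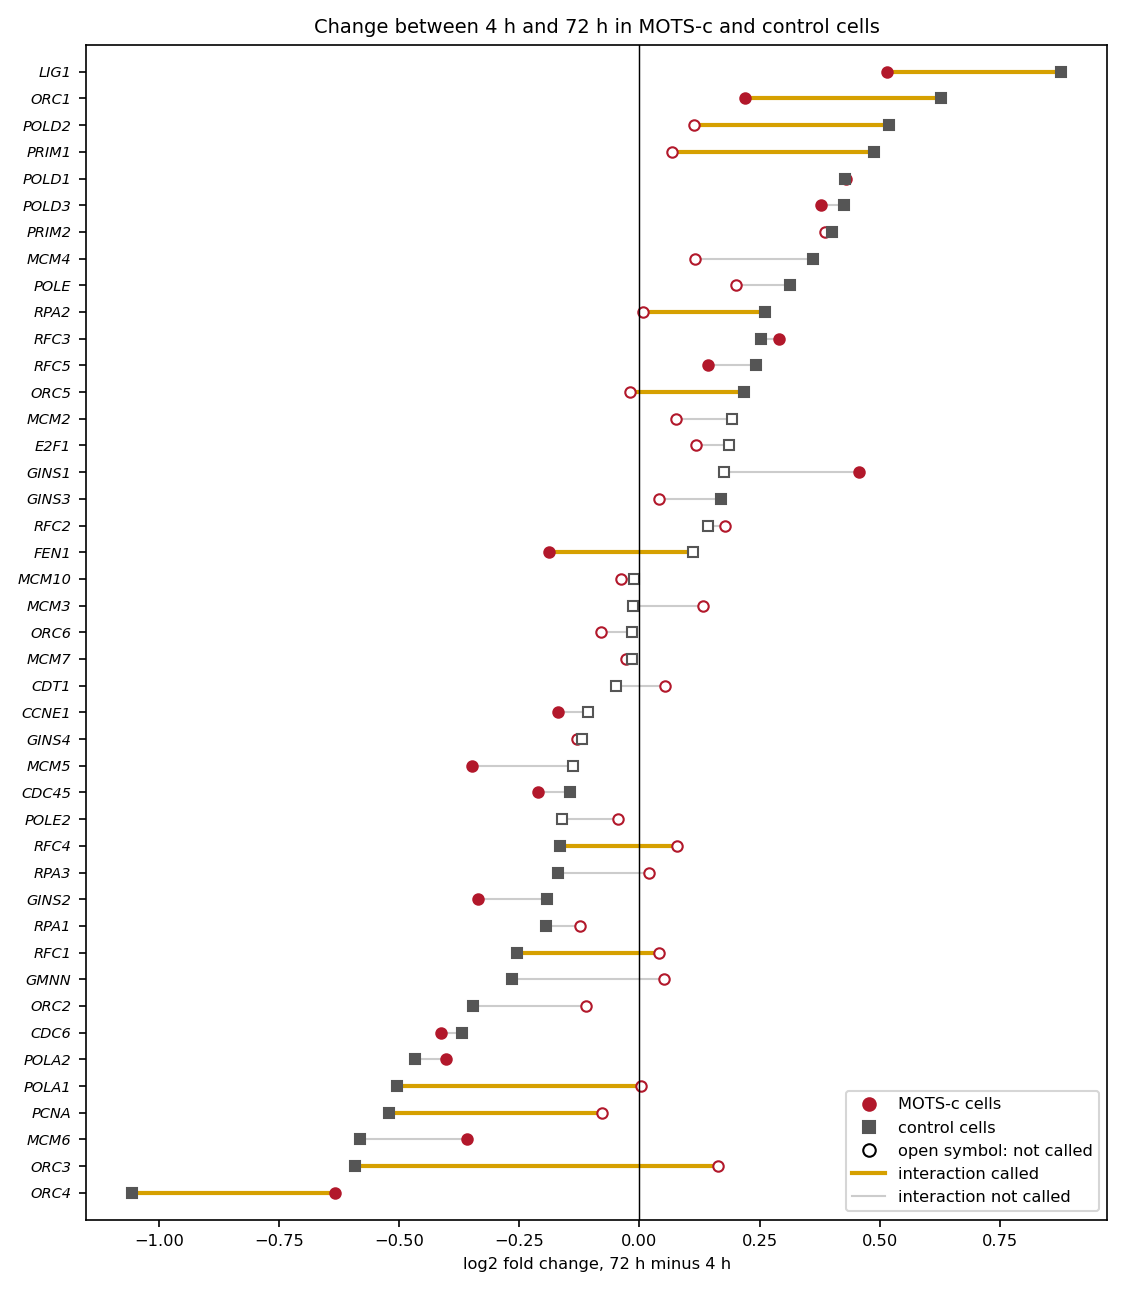
Log2 fold change of each member, 72 h minus 4 h (x axis), in MOTS-c cells (red circles) and in control cells (grey squares), with genes down the y axis, open symbols where the test was not passed and a gold line where the interaction passed. ORC4 is lowest in both (-0.64 in MOTS-c cells and -1.06 in control cells) and LIG1 is highest in both, while POLA1 lies at 0.00 in MOTS-c cells and -0.51 in control cells.

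Different probes of a gene did not always agree in sign or size, and the probe with the highest mean stood for the gene. For ORC6 the other probe was higher at 72 h by 0.40 (adjusted p = 0.0022), against -0.04 for the probe used. The other kept ORC5 probe gave 0.03, against -0.28 for the probe used, and that of RFC1 gave 0.07, against 0.18. The other RFC3 probes gave 0.35 and 0.04, against 0.10 for the probe used. Their interaction values were 0.48 (adjusted p = 0.00102 in the limma fit of each probe) and 0.00, against 0.04. For PCNA the other probes gave 0.26 and 0.19 at 72 h, the same direction as 0.36, but with time in control cells they gave 0.00 and 0.13, against -0.52 for the probe used. With time in control cells, RPA1 was lower by the probe used (-0.19) and higher by its other probes (0.29 and 0.32), and MCM10 did not pass by the probe used (-0.01) but was higher by the other (0.58). With the mean of a gene's probes, among results that passed with either choice, the direction turned for ORC6 at 72 h, for MCM7, ORC5, MCM10 and RPA1 with time in control cells, and for MCM10 and CCNE1 with time in MOTS-c cells. It also turned for 11 results of members that passed with neither. Averaging probes also ended the 72 h calls of ORC5 and RFC1 and added ORC6, MCM3 and RFC3.

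Other replication and cell-cycle genes are given for context, from lists of related genes. Mitosis and G2/M genes, 32 measured of 32, had 13 higher and 2 lower at 72 h (46.9%) and a median of 0.13, with ANLN (0.68), the spindle checkpoint kinase BUB1 (0.58), cyclin B2 (CCNB2, 0.55) and its kinase CDK1 (0.48) the largest. G1/S regulators, 31 of 32 measured, had 11 higher and 3 lower (45.2%) and a median of 0.11, including RB1 (0.62), which restrains E2F factors, SKP2 (0.44) and CCNA2 (0.41) higher, and the kinase inhibitor CDKN2D (-0.52) lower. Deoxynucleotide synthesis genes, 10 of 12 measured, had 6 higher and 2 lower (80%) and a median of 0.18, with CMPK1 (0.60), RRM2B (0.43) and DCK (0.35) higher and TK1 (-0.53) lower. Other replication genes, 35 of 37 measured, had 4 higher and 8 lower (34.3%) and a median of 0.03, including TIPIN (-0.50), RNASEH2A (-0.43) and CHTF18 (-0.41) lower and DNA2 (0.40) higher. These shares stand beside the 45.1% of all genes and the 37.2% of the members. With median scaling the counts were 17 higher and 0 lower for mitosis genes, 14 and 1 for G1/S regulators, 7 and 2 for deoxynucleotide genes and 6 and 3 for other replication genes, and TIPIN no longer passed (adjusted p = 0.0544). Over all genes tested, median scaling gave 2952 higher and 1737 lower.

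**Figure D5:**
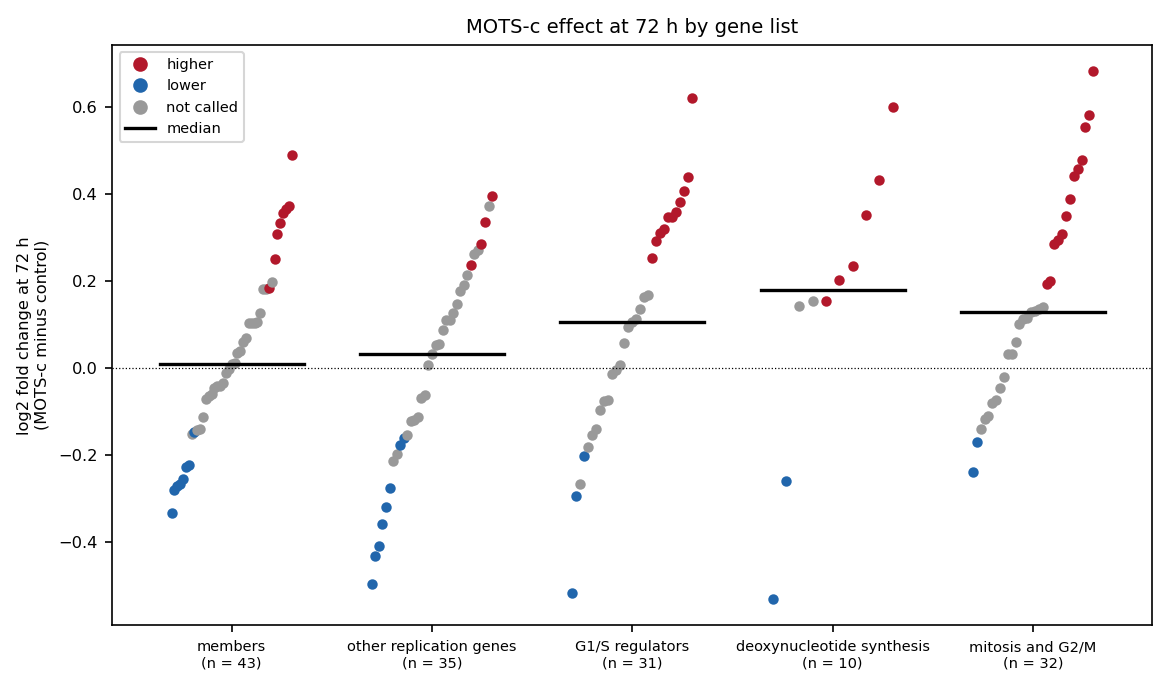
Log2 fold change at 72 h, MOTS-c minus control (y axis), for members and for the 4 related lists (x axis), 1 point per gene, coloured by call, with a bar at the median. Medians lie at 0.01 for members, 0.03 for other replication genes, 0.11 for G1/S regulators, 0.18 for deoxynucleotide synthesis and 0.13 for mitosis genes.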

How the data were processed

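RNA of 24 HEK293 samples was measured on Illumina bead arrays, 1 array per sample, and groups were taken from the sample labels. The deposited table holds a mean bead intensity per probe and array, read with GenomeStudio 2011.1 per the submitters' processing notes, with no background subtraction or scaling between arrays. It also holds the authors' detection p-value of each probe on each array. A second deposited table holds a score, found here to be a Z score, taken per array, of log10 intensities (largest difference 5e-10) and used only as an alternative. The genome build of the probes is not given in the sources used here.

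In R 4.3.3 with limma 3.58.1, the deposited intensities were turned into log2 values by neqc, with its background model fed by detection p-values, quantile normalization and an added offset of 16. A probe was kept if 6 or more arrays had a detection p under 0.05 (23931 probes), of which 17873 mapped to 1 gene in the platform annotation and 6058 were left out. Of all 47323 probes, 30113 had 1 gene symbol, 8 had several and 17202 had none. The probe with the highest mean stood for a gene, which left 13283 genes. All 24 arrays entered a single model of group means (lmFit and eBayes; 20 residual degrees of freedom, 6.43 from the prior), and p-values were adjusted over all genes by Benjamini-Hochberg. The comparisons were MOTS-c minus control at 72 h and at 4 h, their difference, and 72 h minus 4 h in MOTS-c and in control cells. On simulated data for the 72 h comparison, with 200 changed genes per size over the 13283 genes, 59% of log2 changes of 0.3 and 99.5% of changes of 0.6 were recovered. The simulation changed far fewer genes than the 5984 called at 72 h, so these rates need not hold for the data. The 4 h comparison was not simulated. The number of arrays limits the precision, and correlations between arrays ran from 0.975 to 0.997.

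The members and all gene lists were chosen with earlier results of these data known. Every member was accounted for, and lowest, median and highest levels were given for E2F1, CCNE1, CDC6, CDT1, GMNN and PCNA, for members called at 72 h (up to 10 in each direction) and for others that a result turned on. In the other comparisons up to 5 called members with the largest change each way were named, and up to 4 called genes of each other list. Genes named beyond this rule, among them those whose probes disagreed, were chosen after their values were seen. Alternatives were median scaling, no background correction, the deposited scores, other detection filters, each probe or the mean of probes, array weights, brightness as a covariate, the replicate block, fits of only the groups compared, stricter thresholds and leaving out each array. Promoter windows came from RefSeq tables on GRCh38.p14. Python 3.11.15 drew the figures.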

Additional observations from a re-analysis of the deposited data

Results flagged for a closer look

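In 9 of 172 groups of 6 arrays (43 members in 4 groups), 1 array lay far from the others by Dixon's test, a rate that chance alone gives in about 1 of 20 groups. In MOTS-c cells at 72 h, E2F1 was at 8.0 on replicate 1 (next highest 7.28) and GINS1 at 5.81 on replicate 2 (next lowest 6.13). In control cells at 72 h, POLD3 was at 7.77 on replicate 1 and POLE at 8.44 on replicate 5. In MOTS-c cells at 4 h, CDC45 was at 11.80 and GINS4 at 7.68, both on replicate 2. In control cells at 4 h, MCM6 was at 12.85 on replicate 4, RFC2 at 9.25 on replicate 3 and RPA1 at 11.55 on replicate 6.

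The MOTS-c effect at 72 h differed from that at 4 h, by the limma interaction, for 13 members. The positive differences, in log2 units, were 0.76 for ORC3, 0.51 for POLA1, 0.44 for PCNA, 0.42 for ORC4, 0.30 for RFC1 and 0.24 for RFC4. With median scaling ORC4 and RFC1 no longer passed, and leaving out 1 array ended the call of ORC4 in 16 of 24 fits, of RFC4 in 9 and of RPA2 in 8. The negative ones were -0.42 for PRIM1, -0.41 for ORC1, -0.41 for POLD2, -0.36 for LIG1, -0.30 for FEN1, -0.25 for RPA2 and -0.24 for ORC5, none of which passed with median scaling.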

How the results depend on the processing

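Of 74 member results that passed the test, 33 passed in every alternative that changed neither the threshold nor the set of arrays, and 4 changed sign in some alternative. At 72 h, ORC3, PCNA, POLA1 and RFC4 passed in all alternatives and in all 24 fits that left out 1 array. In the alternative that tested each probe, the probe used still stood for its gene. That alternative therefore did not weigh a gene's other probes. The other PCNA probes gave 0.26 (adjusted p = 0.0256) and 0.19 (adjusted p = 0.0585) at 72 h in the limma fit of each probe. The counts of members that passed were 16 for MOTS-c at 72 h, 13 for the interaction, 29 for time in control cells, 16 for time in MOTS-c cells and 0 for MOTS-c at 4 h. With median scaling they were 7 at 72 h, 6 for the interaction and 10 for time in MOTS-c cells. At an adjusted p under 0.01 they were 7 for the interaction and 10 for time in MOTS-c cells, and the other comparisons are not given at that threshold. With a log2 change of at least 0.3 also required they were 7 at 72 h, 8 for the interaction, 17 for time in control cells and 10 for time in MOTS-c cells. Leaving out 1 array gave 14 to 17 at 72 h, 10 to 15 for the interaction, 24 to 30 for time in control cells, 13 to 17 for time in MOTS-c cells and 0 to 0 at 4 h. Samples that share a replicate number did not deviate together (correlations from -0.15 to 0.16 at 72 h and from -0.23 to 0.093 at 4 h), and 1 of 6 samples at 72 h and 0 of 6 at 4 h correlated best with its own number. With the replicate block the counts were 14, 12, 27, 14 and 0 in the order first given. Shares of all genes are not given for the stricter thresholds, the fits without 1 array or the replicate block. The counts at those settings therefore show only how member calls moved, and do not set members apart from other genes. Among results that passed in at least 1 of the settings compared, signs changed for RFC5 at 72 h with median scaling (0.0036). With the mean of a gene's probes they changed for ORC6 at 72 h (0.18), for MCM7 (0.16), ORC5 (-0.0075), MCM10 (0.28) and RPA1 (0.14) with time in control cells, and for MCM10 (0.19) and CCNE1 (0.018) with time in MOTS-c cells. Signs also changed for 41 member results with median scaling and 11 with the mean of probes that passed in neither setting. The probes of the genes named for the mean of probes differ in sign or size, and the cause of the other changes was not tested. Arrays give no counts, and GINS1 was near background at 4 h.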
